A study of Homo sapiens with 3 samples.

Results

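The alpha-arrestins TXNIP, ARRDC1, ARRDC2, ARRDC3 and ARRDC4 were followed in A498 cells, an established epithelial line from a human kidney carcinoma. They are 5 of the 18239 genes with at least 1 probe set annotated to that gene alone, and together they had 13 such probe sets. The family was chosen because TXNIP and ARRDC3 were lower on the array of cells given bacteria. They were lower there than on the control array, so their values in each comparison that uses either array are a description. Cells were grown to confluence in medium with fetal calf serum and gentamicin, and then received fresh serum-free RPMI, still with gentamicin, and a treatment of 4 h. The control culture received 0.08% DMSO. The other cultures received E. coli 83972, a strain that lives in the urinary tract without causing symptoms, or 60 µM DRB, a nucleoside analogue that inhibits the kinase CDK9, which RNA polymerase II needs for elongation. DMSO is stated for the control alone, so its effect and those of the treatments cannot be told apart. The labels give conflicting bacterial concentrations, and none is printed. All 3 arrays carry the label of experiment 2.

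Each group had 1 Affymetrix 3' expression array and no replicate. Every difference below subtracts one array from another on the log2 scale. It compares cultures and not conditions, and no test between groups was possible. The array medians were 4.87 for control, 4.90 for E. coli 83972 and 4.88 for DRB. A gene was represented by its brightest probe set and kept where its highest value was at least 4.88, the overall median of the table (the filter level), which held for 11653 genes and all 5 alpha-arrestins. Disagreement between the 2 brightest probe sets of a gene gave a technical standard deviation of 0.18 for E. coli 83972 minus control, 0.32 for DRB minus control and 0.35 for E. coli 83972 minus DRB, without the variation between cultures. Of 8 markers of kidney epithelium and renal carcinoma 7 were kept, while CA9 had no probe set of its own. On the control array VIM read 12.85, KRT18 11.63, CDH2 10.65, KRT8 10.28, KRT19 8.29, PAX8 7.07 and PAX2 5.69. Of the defining markers of other cell types, PTPRC (3.41 to 3.52), CD14 (3.33 to 3.40), CDH5 (3.83 to 4.01) and LUM (2.70 to 2.83) lay under the filter level on all 3 arrays. Markers above it were CD68 among 5 leukocyte markers (9.00 to 9.41), with CD3E at most 5.03, PECAM1 and VWF among 4 endothelial ones (at most 5.60) and COL1A1 among 4 fibroblast ones (at most 5.10).

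Alpha-arrestins are adaptors with an arrestin fold that link membrane proteins to ubiquitin ligases of the NEDD4 family and so direct them into endosomes. TXNIP also binds and inhibits reduced thioredoxin, limits glucose uptake through its action on glucose transporters, and is a target gene of MondoA (MLXIP) and ChREBP (MLXIPL), glucose-sensing factors that bind DNA with MLX. ARRDC4 is the other member known as a target of this sensor. ARRDC3 acts on membrane proteins such as integrin beta 4, and ARRDC1 recruits the ESCRT machinery to bud vesicles from the plasma membrane. TXNIP is also known as a binding partner of the inflammasome receptor NLRP3.

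The sequences before the start sites are shown because TXNIP and ARRDC3, the members lowest with the bacterium, differed in direction on the DRB array at the deposited scaling, though not with centring on all or on poly-A spike-ins. RefSeq (GRCh38.p14) gave 8 promoter windows for the 5 genes, of 250 bases before and 50 after a start, and which start A498 cells use was not measured. The windows lie on chromosome 1 for TXNIP, 9 for ARRDC1, 19 for ARRDC2, 5 for ARRDC3 and 15 for ARRDC4. Capitals mark matches, on either strand, to the motifs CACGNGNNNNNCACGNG (carbohydrate response element), CACGTG (E-box), GTAAACA (forkhead core) and CCAAT. The TXNIP stretch is chr1:145996580-145996729 on the minus strand, before the first of its listed starts. That of ARRDC3 is chr5:91380098-91380197 on the minus strand, before the second of its listed starts. That of ARRDC4 is chr15:97960453-97960702 on the plus strand.
TXNIP: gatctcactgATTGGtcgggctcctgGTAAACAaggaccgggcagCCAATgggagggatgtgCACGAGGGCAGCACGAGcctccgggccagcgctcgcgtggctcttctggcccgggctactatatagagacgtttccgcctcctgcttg
ARRDC3: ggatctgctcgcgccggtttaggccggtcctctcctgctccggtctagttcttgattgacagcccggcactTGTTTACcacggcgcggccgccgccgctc
ARRDC4: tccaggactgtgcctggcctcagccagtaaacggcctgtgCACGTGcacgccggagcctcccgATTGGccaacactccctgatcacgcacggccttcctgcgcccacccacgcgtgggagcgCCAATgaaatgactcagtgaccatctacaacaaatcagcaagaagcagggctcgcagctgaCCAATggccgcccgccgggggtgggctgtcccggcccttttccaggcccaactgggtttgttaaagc

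The carbohydrate response element, the form bound by MondoA or ChREBP with MLX, began 88 bases before the first listed start of TXNIP and read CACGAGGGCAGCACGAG. It occurred in 20 of all 35116 promoter windows (0.0570%) and in 1 of the 8 windows of the family. The forkhead core, bound by factors such as FOXO proteins, began 124 bases before the first listed start of TXNIP. On the other strand it began 29 bases before the second start of ARRDC3. It was in 2 of the 8 windows of the family and in 3.42% of all. The window of the first listed ARRDC3 start did not hold it, and its only match was to CCAAT. The E-box was found 210 bases before the start in ARRDC4, against 7.26% of all windows. CCAAT, bound by NF-Y, was in 5 of the 8 windows of the family and in 34.6% of all. The window of the second listed TXNIP start held no match to any of these motifs. No letter was shared between matches of different motifs. The motifs were picked with the family in view, and a match is a description of the letters, not a site in use.

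TXNIP was lower on both treated arrays, and lowest with the bacterium. Its brightest probe set read 8.50 on the control array, 6.45 with E. coli 83972 and 7.48 with DRB. The value with E. coli 83972 was 4.14-fold below control (log2 −2.05), at rank 7 from the lowest of 11653 kept genes. With DRB it was 2.03-fold below control (−1.02), at rank 1154, close to the 2-fold line.

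The other 4 TXNIP probe sets had the same order of arrays, with control highest and E. coli 83972 lowest. Their control, E. coli 83972 and DRB values were 8.19, 6.44 and 7.10 in the next brightest. They were 7.14, 6.11 and 6.77 in the third, which showed the smallest differences from control of the 5. The remaining sets read 7.67, 5.80 and 6.46, and 5.94, 4.40 and 4.91, the last of which lay in the dim range on the E. coli 83972 array (under 4.88), where differences are compressed. All 5 sets were at least 2-fold lower with E. coli 83972 (mean −1.65 ± 0.39, SD over 5 probe sets, which are not replicates). With DRB 4 of 5 were (mean −0.94 ± 0.33), and the exception was at −0.37. Between the treated arrays the sets ranged from −1.03 to −0.51 (E. coli 83972 minus DRB, mean −0.70 ± 0.19), and only the brightest reached 2-fold.

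ARRDC3 was lower with the bacterium and higher with DRB as the values were deposited. Its brightest probe set read 8.99 on the control array, 7.69 with E. coli 83972 and 9.39 with DRB. The first difference was 2.48-fold down (−1.31, rank 34 from the lowest), and the second was 1.32-fold up (0.40). The sign of the DRB difference turned with centring on all spike-ins (−0.30) or on poly-A spike-ins (−0.48), RNAs added in fixed amounts, whereas its place above 91.0% of kept genes is not altered by a centring, which shifts all genes alike.

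A second ARRDC3 probe set gave 8.75 on control, 7.29 with E. coli 83972 and 8.96 with DRB. The third and dimmest gave 5.86, 5.33 and 6.99. All 3 sets thus had E. coli 83972 lowest and DRB highest, but they split in where control lay. Against control the differences with E. coli 83972 were −1.31, −1.45 and −0.53 (mean −1.10 ± 0.49), and those with DRB were 0.40, 0.21 and 1.13 (mean 0.58 ± 0.48). Between the treated arrays the 3 sets were close to each other, with a mean of −1.68 ± 0.02 (E. coli 83972 minus DRB). That difference was 3.26-fold in the brightest set (−1.71). It ranked 5 from the lowest of the kept genes, a description because ARRDC3 was chosen on the same E. coli 83972 array. The 4 genes below it, named after their values were seen, were the helix-loop-helix inhibitor gene ID1 (−3.40), the Notch target HES1 (−2.56), the decoy receptor gene TNFRSF10D (−2.30) and the heat shock gene HSPA1B (−1.88).

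**Figure D1:**
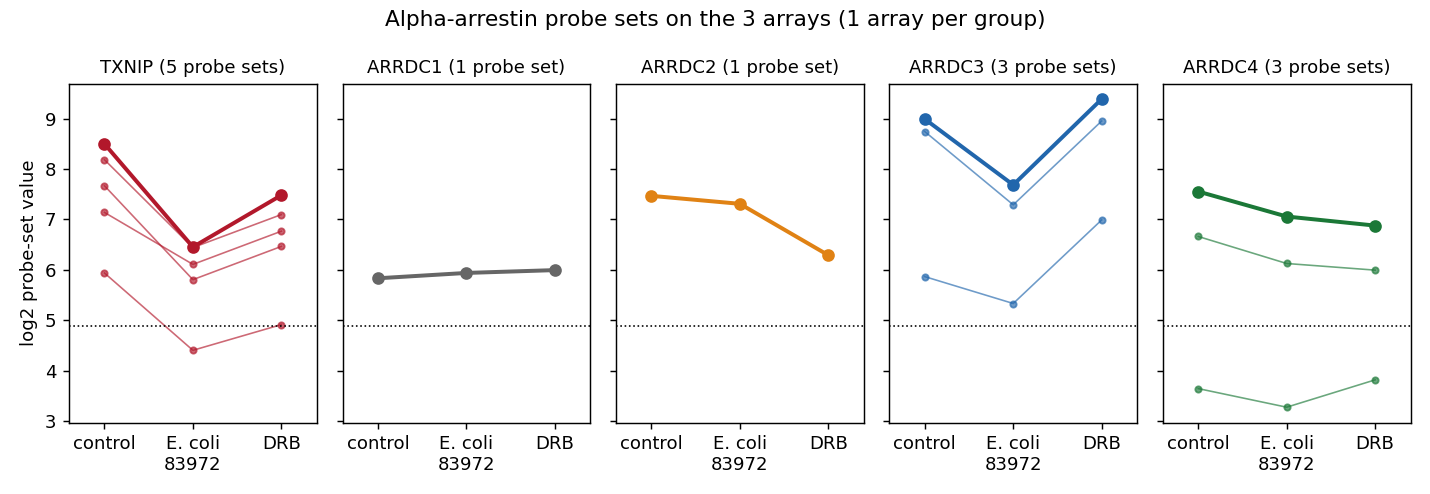
Log2 probe-set values (vertical axis) of the 13 alpha-arrestin probe sets on the control, E. coli 83972 and DRB arrays, 1 array per group; each line is a probe set, the thick line is the brightest of its gene and the dotted line is the filter level of 4.88. All 5 TXNIP sets are lowest with E. coli 83972 and highest on control, and all 3 ARRDC3 sets are lowest with E. coli 83972 and, at the deposited scaling, highest with DRB, an order against control that turns in the brightest set with centring on all or on poly-A spike-ins.

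ARRDC4 was lower than control on both treated arrays, by less than 2-fold. Its brightest set read 7.56 on control, 7.06 with E. coli 83972 and 6.88 with DRB, that is −0.50 (1.41-fold) and −0.68 (1.60-fold). The second set read 6.66, 6.13 and 5.99. The third lay under the filter level on all 3 arrays (3.64, 3.27 and 3.81) and was above control with DRB by 0.17. With E. coli 83972 the 3 sets had a mean of −0.47 ± 0.09. The DRB mean was −0.39 ± 0.49, or −0.68 and −0.67 for the sets above the filter level. The treated arrays differed by 0.18 in the brightest set, less than the technical standard deviation of 0.35.

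ARRDC2, whose protein is among the less studied of the family, was lower with DRB. Its only probe set read 7.47 on control, 7.31 with E. coli 83972 and 6.29 with DRB. The DRB value was 2.26-fold below control (−1.18), and the E. coli 83972 value was 0.16 below it, within the technical standard deviation. ARRDC1 varied least, with 5.83, 5.94 and 5.99 in its only probe set, of the kind that can hybridize with other transcripts. Its differences of 0.11 with E. coli 83972 and 0.16 with DRB were within the technical standard deviations, and both turned sign with centring on all spike-ins (−0.02 and −0.53). The antisense gene ARRDC1-AS1, which is not a member, read 5.81 on control, 5.74 with E. coli 83972 and 5.00 with DRB, a DRB difference of −0.81.

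With E. coli 83972 the family had 2 of its 5 genes past 2-fold on the lower side and 0 on the higher side, where 0.652% of kept genes were that much lower and 1.91% higher. The members were chosen on this comparison, so the count says nothing further. On the DRB array, which shares its control with the former, 2 of 5 members were at least 2-fold lower, TXNIP and ARRDC2, and 0 higher, where 10.2% and 0.129% of kept genes were. That count was 1 with the mean over all probe sets or quantile normalization, and 3 with centring on all or on poly-A spike-ins, when ARRDC4 joined. TXNIP was chosen against the same control array, so its place in that count is a description. Between the treated arrays TXNIP and ARRDC3 were at least 2-fold lower with E. coli 83972 (0.386% of kept genes) and ARRDC2 at least 2-fold higher (1.02, background 12.3%). This comparison uses the E. coli 83972 array on which TXNIP and ARRDC3 were chosen, so their count says nothing further. TXNIP was under 2-fold there when its probe sets were averaged (−0.70) or with centring on all (−0.46) or on poly-A spike-ins (−0.15). ARRDC3 was so with centring on poly-A spike-ins (−0.83), and ARRDC2 with quantile normalization (0.87) or centring on hybridization spike-ins (0.91). Centring on poly-A spike-ins also took ARRDC4 past 2-fold on the higher side (1.06). The median difference of the 5 members was −0.50 with E. coli 83972 (−0.03 over all kept genes), a value that the choice of members lowers and from which nothing is read. It was −0.68 with DRB (0.05 over all kept genes) and −0.06 for E. coli 83972 minus DRB (−0.07). Each of these comparisons shares an array with that choice, so nothing is read from these medians either.

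**Figure D2:**
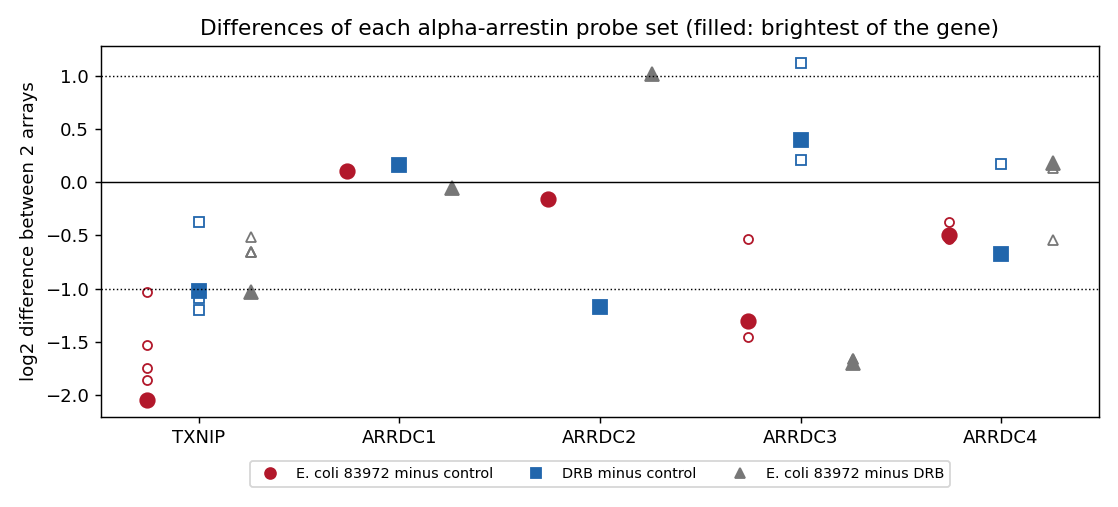
Log2 difference between 2 arrays (vertical axis) for each probe set of the 5 alpha-arrestins: circles show E. coli 83972 minus control, squares DRB minus control and triangles E. coli 83972 minus DRB, filled for the brightest set of a gene, with dotted lines at 2-fold. TXNIP lies below 0 in all 3 comparisons, ARRDC3 changes sign between the first and the second (not with centring on all or on poly-A spike-ins), and ARRDC2 is at least 2-fold lower with DRB alone.

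The 76 kept genes that were at least 2-fold lower with E. coli 83972 divided by their values on the DRB array. Of these 43 were also at least 2-fold lower with DRB, as TXNIP was. They are 0.369% of kept genes, and 10.2% of all kept genes were that much lower with DRB. A further 26 lay between control and that 2-fold line. Over all kept genes, 44.2% lay below control with DRB. ARRDC3 was 1 of the 7 that lay above control with DRB at the deposited scaling, together with HES1 (1.25), TNFRSF10D (0.42), GCSH of the glycine cleavage system (0.44), the endosomal recycling GTPase gene RAB4A (0.17), the fatty acid elongase gene ELOVL6 (0.13) and GET1, for insertion of tail-anchored proteins (0.08). The comparisons share the control array, so this division describes 3 arrays, and centring on poly-A spike-ins lowers each DRB value by 0.87.

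Genes most like TXNIP were sought by the distance between pairs of differences (E. coli 83972 minus control and DRB minus control) over the 3 arrays. Each gene was represented by its brightest probe set alone. The distance includes the E. coli 83972 difference on which TXNIP and ARRDC3 were chosen, so the ranks are a description. The nearest of 11653 kept genes was the p53 target TP53INP1, at a distance of 0.64, with values of 8.05 on control, 6.44 with E. coli 83972 and 7.50 with DRB. It was followed by the cohesin protector gene SGO2 (0.65), ENC1 (0.68), the NF-κB-inducing kinase gene MAP3K14 (0.73) and the adenosine receptor gene ADORA1 (0.75). These distances lay closer together than the technical standard deviation of 0.18 for E. coli 83972 minus control, so their order is not settled. For ARRDC3 the nearest were GCSH (0.12), RAB4A (0.25), GET1 (0.41), ELOVL6 (0.41) and the ubiquitin-like gene UBL3 (0.43). GCSH read 6.60 on control, 5.40 with E. coli 83972 and 7.04 with DRB in its only probe set. No other alpha-arrestin was among the nearest genes. From TXNIP, ARRDC4 came at rank 294, ARRDC3 at 317, ARRDC2 at 1095 and ARRDC1 at 8386. From ARRDC3, ARRDC4 came at rank 5138, ARRDC1 at 6708, TXNIP at 8486 and ARRDC2 at 10027.

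The genes around the family were taken from lists chosen by role, and their counts stand beside the shares of all kept genes past 2-fold given above. Of the 3 genes for the glucose-sensing factors 0 were 2-fold different with E. coli 83972, where MLXIP read 9.11 on control and 9.03, and MLXIPL 5.75 and 5.72. With DRB 1 of 3 was at least 2-fold lower (10.2% of kept genes), MLX, the shared partner, which read 8.79 on control, 8.67 with E. coli 83972 and 7.21 with DRB (−1.58). The 6 MLX probe sets ranged from −1.58 to −0.22 in that comparison.

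Of 14 thioredoxin system genes 13 were kept, and 0 were 2-fold different on either treated array, with medians of −0.09 with E. coli 83972 and −0.01 with DRB. TXN, the thioredoxin that TXNIP binds, read 12.82 on control, 12.83 with E. coli 83972 and 12.80 with DRB, near the top of the array range (13.29), where differences may be compressed. The largest with E. coli 83972 were those of the glutaredoxin gene GLRX (−0.37), the peroxiredoxin gene PRDX4 (−0.32) and the thioredoxin reductase gene TXNRD1 (0.24). With DRB SRXN1, which repairs peroxiredoxins, was at −0.77 and GLRX2 at −0.40.

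Among glucose transporters and hexokinases 13 of 17 were kept, with 1 at least 2-fold higher with E. coli 83972 (1.91% of kept genes), 0 lower (0.652%), and with DRB 0 higher (0.129%) and 0 lower (10.2%). It was SLC2A6, a transporter of intracellular membranes, which read 7.07 on control, 8.72 with E. coli 83972 and 7.18 with DRB (1.65 and 0.11). Its 4 probe sets ranged from −0.04 to 1.65 with the bacterium. SLC2A1, the main basal glucose transporter and a cargo of TXNIP, read 10.12, 10.42 and 10.01. The hexokinase genes HKDC1 and HK2 differed by 0.59 and 0.58 with E. coli 83972 and by −0.11 and −0.25 with DRB. The 3 HKDC1 sets ranged from 0.47 to 0.68 and from −0.11 to 0.19. The 2 HK2 sets ranged from 0.03 to 0.58 and from −0.25 to 0.20. The list's medians were 0.08 and 0.15.

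NEDD4-family ligases and their adaptors, the partners of the family in ubiquitination, had 10 of 11 genes kept and 0 of them 2-fold different with E. coli 83972 (median −0.03). NEDD4L was highest there at 0.81 (7 probe sets, from 0.31 to 1.14) and NEDD4 followed at 0.45 (3 probe sets, from 0.45 to 0.90). ITCH, the ligase known for TXNIP turnover, was at −0.05 (4 probe sets, from −0.09 to 0.47). With DRB 1 of 10 was at least 2-fold lower, a share near the 10.2% of all kept genes, 0 were higher, and the median was −0.43. It was SMURF2 at −1.18 (probe sets from −1.18 to 0.09). ESCRT genes, used by ARRDC1 for budding, had 12 of 13 kept, 0 of them 2-fold different with E. coli 83972 (median −0.04). With DRB 1 of 12 was at least 2-fold lower, no larger a share than the 10.2% of all kept genes, 0 were higher, and the median was −0.39. It was VPS37C at −1.36 (2 probe sets, −1.36 and 0.42). TSG101, which ARRDC1 binds, read 9.26 on control, 9.22 with E. coli 83972 and 9.00 with DRB.

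Membrane cargo genes had 5 of 6 kept and 0 at least 2-fold different on either treated array (medians 0.19 and 0.15). The largest values were 0.45 for the insulin receptor gene INSR with E. coli 83972 and −0.95 for NOTCH1 with DRB. The 5 INSR sets ranged from 0.03 to 0.45, and the brightest read 4.76 on control, under the filter level. The 3 NOTCH1 sets ranged from −0.95 to 0.40 and so differed in sign. Of 7 AMPK subunits, parts of the energy-sensing kinase that phosphorylates TXNIP, 0 were 2-fold different on either array, with medians of −0.14 and −0.29. Of 7 inflammasome genes 5 were kept and 0 were 2-fold different from control. IL1B was at 0.81 and IL18 at −0.87 with E. coli 83972, while NLRP3 (4.38, 4.50 and 4.50) lay under the filter level on all 3 arrays. Other arrestin-fold genes had 5 of 8 kept and 0 at least 2-fold different (medians 0.07 and 0.09). They include ARRDC5, the remaining alpha-arrestin, at 4.90, 4.97 and 4.99. The lists were described against control, at the deposited scaling alone. Past 2-fold only between the treated arrays (E. coli 83972 minus DRB) were VPS37A (1.42), STAM (1.21), VPS37B (1.08), CASP1 (−1.15) and the marker PAX8 (1.13). Probe sets ranged there from 0.14 to 1.42 for VPS37A (3 sets) and from 1.21 to 1.42 for STAM (2 sets). The ranges were −1.15 to −0.05 for CASP1 (9 sets) and −0.22 to 1.13 for PAX8 (4 sets), while VPS37B had 1 set. Of all kept genes 12.3% were that much higher there and 0.386% lower.

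**Figure D3:**
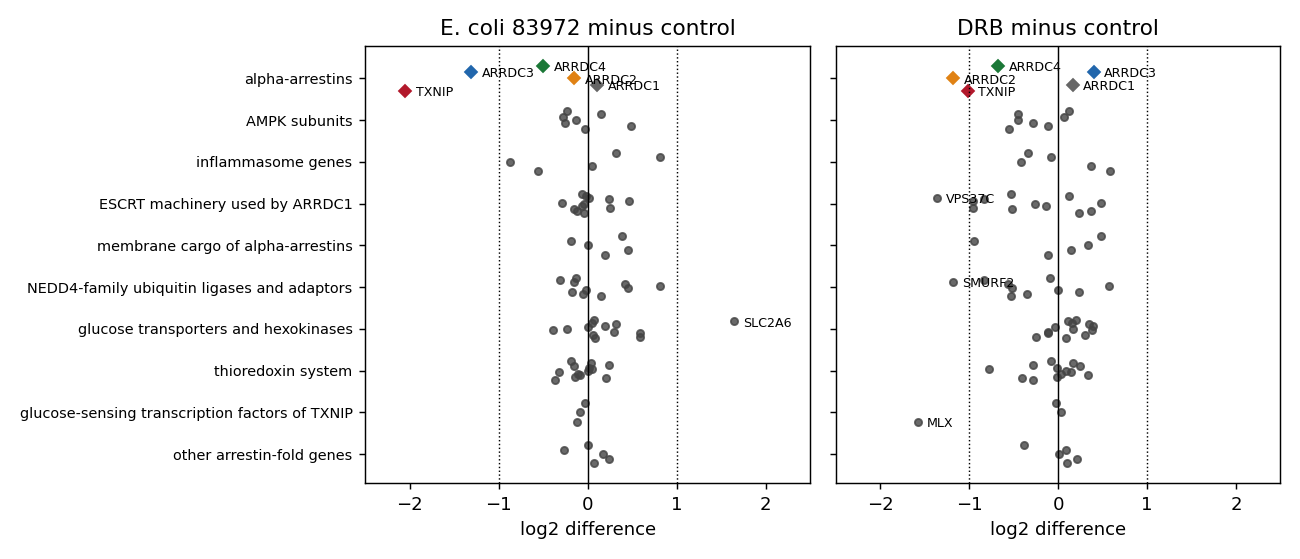
Log2 difference (horizontal axis) of E. coli 83972 minus control, left, and DRB minus control, right, for the kept genes of each list (dots) and the 5 alpha-arrestins (diamonds, top row), with dotted lines at 2-fold and names for genes beyond it. TXNIP and ARRDC3 lie beyond 2-fold on the left, where SLC2A6 is the only list gene beyond it, and MLX, SMURF2 and VPS37C lie beyond it on the right with TXNIP and ARRDC2.

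Over the other settings tried, the difference with E. coli 83972 ranged from −2.38 to −1.65 for TXNIP and from −1.64 to −1.10 for ARRDC3. With DRB TXNIP ranged from −1.89 to −0.93 and ARRDC2 from −2.05 to −1.04, while ARRDC3 ranged from −0.48 to 0.58. The median of the poly-A spike-ins was 0.87 higher on the DRB array than on control, and differed by −0.0048 on the E. coli 83972 array. That of the hybridization spike-ins was higher by 0.23 and 0.34. Centring on them shifted the median of all kept genes by the same amounts.

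**Figure D4:**
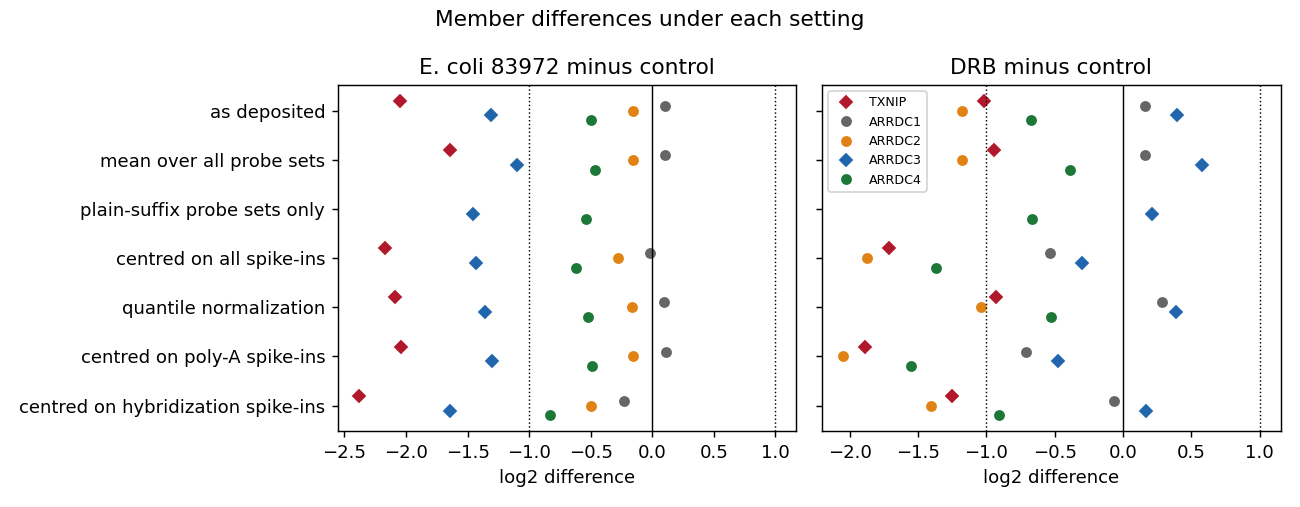
Log2 difference (horizontal axis) of each alpha-arrestin under the deposited scaling and each alternative (rows), for E. coli 83972 minus control, left, and DRB minus control, right; dotted lines mark 2-fold, and TXNIP, ARRDC1 and ARRDC2 have no plain-suffix probe set. TXNIP and ARRDC3 stay beyond 2-fold on the left in each setting that has a value, and ARRDC3 crosses 0 on the right with centring on all or on poly-A spike-ins.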

How the data were processed

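The authors deposited probe-set values on a log2 scale, 1 column per array. The submitters' processing notes name RMA and Partek; their versions are not stated there. RMA brings arrays to nearly one distribution, which reduces a change shared by most transcripts. Of 49386 probe sets, 45259 had 1 gene symbol in the platform annotation (1327 had several, 2800 were not listed), and 45178 took it from RefSeq (GRCh38.p14) by Entrez identifier. A gene's probe set of highest mean represented it, with a filter at 4.88, and a difference of 1 was called 2-fold. The calculation was tested on simulated data (Python 3.11.15, pandas 2.3.3). Precision is limited by having 1 array per group. The alternatives were the mean over probe sets, plain-suffix probe sets (no letter before _at), no filter, a filter at 6.91, quantile normalization, and centring on all 36 spike-in probe sets; centring on the 27 poly-A or 9 hybridization ones was added after seeing the data. Scaling alternatives kept the same genes. Named were the members, list genes past 2-fold, some list genes with the largest differences, and the 5 nearest genes. MLXIP, MLXIPL, TXN, SLC2A1, ITCH, TSG101, NLRP3 and ARRDC5 were added for their role. The members and lists were chosen with earlier results of these data known.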

Additional observations from a re-analysis of the deposited data

How the results depend on the processing

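TXNIP and ARRDC3 kept their direction against control with E. coli 83972 under each alternative that gave a value. As deposited the counts of genes past 2-fold were 222 higher and 76 lower with E. coli 83972, 15 and 1185 with DRB, and 1432 and 45 for E. coli 83972 minus DRB. With the mean over probe sets, 43 genes were lower with E. coli 83972, TXNIP was at −1.65 and ARRDC3 at −1.10, 6 genes were higher and 698 lower with DRB, and 914 were higher and 21 lower between treated arrays. Plain-suffix probe sets, which represent fewer genes, gave 82 higher and 22 lower, 7 and 401, and 497 and 17. Centring on all spike-ins gave 177 higher and 107 lower with E. coli 83972, 1 and 3056 with DRB, with TXNIP at −1.71 and ARRDC3 at −0.30, and 2709 and 7 between treated arrays, with TXNIP at −0.46 and ARRDC3 at −1.13. Centring on poly-A spike-ins gave 1 and 4044 with DRB, with TXNIP at −1.89 and ARRDC3 at −0.48, and 4028 and 4 between treated arrays, with TXNIP at −0.15 and ARRDC3 at −0.83. Centring on hybridization spike-ins gave 129 higher and 247 lower with E. coli 83972, with TXNIP at −2.38 and ARRDC3 at −1.64, 5 higher with DRB and 89 lower between treated arrays. Quantile normalization gave 30 higher with DRB and 91 lower between treated arrays. A centring shifts all genes alike; the cause of the other shifts was not tested. No member value past 2-fold changed sign, whereas that of ARRDC3 with DRB, under 2-fold as deposited (0.40), did so with centring on all or on poly-A spike-ins. Of the other 48 values, for ARRDC1, ARRDC2 and ARRDC4, 33 moved by less than the technical standard deviation and 15 by more. TXNIP, ARRDC1 and ARRDC2 have no plain-suffix probe set. No paired analysis was possible because each group holds 1 array. Probe sets under the filter level have compressed differences.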
